A study of Mus musculus with 899 samples.

Results

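Mouse miRNA names carry a number that was given in the order of registration. Here the high-numbered miRNA, those named miR- with a number of 5000 or more, were described in mouse plasma. The members were chosen by their reads summed over all samples, which had to come to 900 or more. Of 1915 mature miRNA listed, 785 had such a number, 522 of these had at least 1 read and 47 reached the sum. Because the summed reads made the choice, abundance and detection are described below without a test. miR-7687-3p, with 659 reads in 202 samples, did not reach the sum.

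The plasma came from 196 mice of C3Hf/Sed/Kam (C3H) and C57Bl/6, which received whole thorax lung irradiation (WTLI) or sham irradiation. C3H mice develop pneumonitis after this exposure and C57Bl/6 mice develop fibrosis. Samples were drawn before treatment (PT), at day 2 or day 5, and monthly to month 4 in C3H and month 6 in C57Bl/6. The C3H samples were 258 of 64 irradiated mice and 144 of 32 sham irradiated mice, and the C57Bl/6 samples were 321 of 68 irradiated and 176 of 32 sham irradiated mice. At PT the groups called irradiated and sham had only been assigned, and male and female mice were in both. Sample titles carry a code that splits each strain in a pair, G1 and G3 in C57Bl/6 and G2 and G4 in C3H, and its meaning was not given. Samples after month 1 came from G1 and G2 alone, and ages were not given in the labels.

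The libraries held 206490 to 11814515 miRNA reads (median 1475030). Markers of the cells that shed RNA into plasma were present, with the red-cell list at a median of 6.16% of reads (0.618% to 14.7%), the leukocyte list at 1.38%, the liver list at 0.844% and the endothelial list at 3.78%. The red-cell list holds miR-486a-5p and miR-486b-5p, whose reads were nearly equal (42879762 and 42871245). The same reads may stand in both, so the red-cell share may be too high. miR-486a-5p alone had a median of 2.69%. In plasma, fewer releasing cells and less RNA released per cell cannot be told apart.

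A miRNA is cut from a hairpin, whose 5′ and 3′ arms give the 5p and 3p sequences, and it recognises its targets mainly through the seed. In a group called mirtrons the hairpin is a short intron or the end of a longer one, freed by splicing rather than by Drosha. Every intron of the usual kind ends in a pyrimidine-rich tract and the bases AG, so a 3p sequence cut from an intron's end carries both. Many high-numbered mouse miRNA were entered from deep sequencing as hairpins of this kind.

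Mature sequences were found for 43 of the 47 miRNA in RefSeq (build GRCm38.p6, of the C57BL/6J strain); miR-7219-3p, miR-6952-3p, miR-5107-5p and miR-5107-3p had none in that table. The first set shown is the 5 most abundant 3p members with a sequence and 3 of the others named in the comparisons below, all at intron ends. The pyrimidine tract can be read in them. Other called 3p members at intron ends are not shown, among them miR-6900-3p, which was only 52.4% pyrimidine. All those shown but miR-6948-3p, which stops 1 base before its intron does, close with ag. In all sequences the seed, bases 2 to 8, is in capitals.
miR-6967-3p: uCAUCUUUaucucuccccag
miR-7075-3p: cAACCAUGucuucuuucccag
miR-7015-3p: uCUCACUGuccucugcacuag
miR-6948-3p: uGUCCUUCcugucugaccaca
miR-6911-3p: uCAAUCACacucuguccacag
miR-6946-3p: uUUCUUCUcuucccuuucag
miR-6975-3p: uCUCUCCUuucuccuccuag
miR-6961-3p: uCCUCUUUcuuccuggcucuag

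The second set holds the most abundant members that lie in exons, the 5p members and the partner arm that the comparisons below turn on.
miR-8114: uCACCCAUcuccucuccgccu
miR-5103: uCAUCCGGgauccccugagg
miR-8112: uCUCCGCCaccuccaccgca
miR-6967-5p: cAGGGAGGgauaaagaccagu
miR-7213-5p: aCUGGGUCucuugagguagc
miR-7646-5p: aCAAGAGAacugaucagugcug
miR-7012-5p: aAGGAGAGgaguuggcagggacu

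Of the 26 3p members with a sequence, 22 (84.6%) ended within 3 bases of the 3′ end of an annotated intron on the same strand. In 18 of these the last base of the miRNA was the last base of the intron, and all 18 ended in AG. The median pyrimidine content of the 26 was 73.3%, against 31.8% in the 9 5p members with a sequence, none of which ended at an intron end. Where annotated introns shared that end, the shortest was taken. The introns ranged from 75 to 36269 bases, and 6 of the 22 were under 100 bases. Together the 22 held 51412 reads, 30.8% of the members' reads.

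miR-6967-3p, annotated at 2 loci on chromosome 17, closed an intron of 88 bases in Kifc5b, a kinesin gene (chr17:26921000-26921019, plus strand). miR-7075-3p closed an intron of 97 bases in Terf2, which encodes a telomere-binding protein (chr8:107096025-107096045, minus strand). miR-6961-3p closed a longer intron, 1037 bases, of Bin2 (chr15:100649163-100649184, minus strand). These differences in intron length stood beside the same tract and closing bases in all 3 sequences.

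Among 3p miRNA with lower numbers and 900 or more reads, 6 of 183 with a sequence (3.28%) ended at an intron end, and 6.01% closed with AG at a median pyrimidine content of 54.5%. High-numbered 3p miRNA below 900 reads lay between, with 60.7% of 247 at an intron end and 55.5% closing with AG. The first base was U in 21 of the 26 3p members (80.8%) and in 35.5% of the other 183. These shares describe the annotation of the rows and did not use the strains or treatments.

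**Figure D1:**
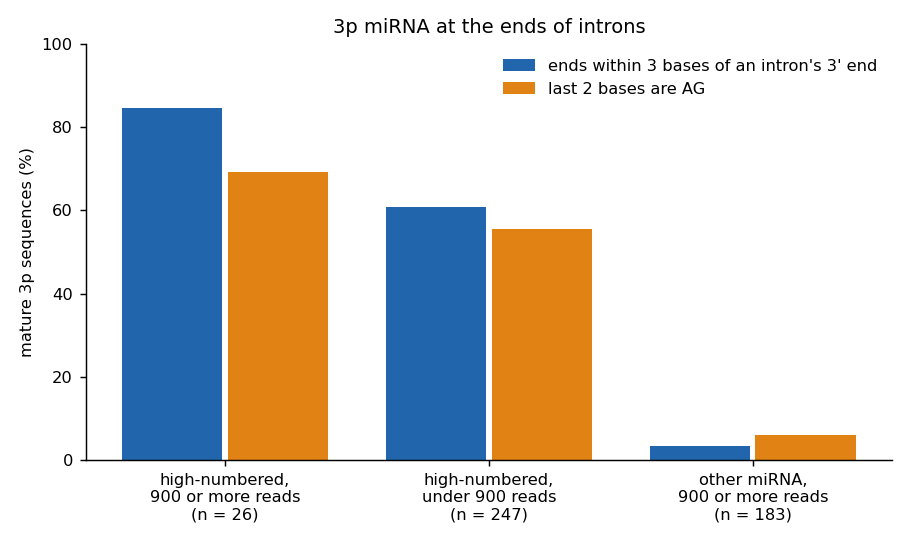
Share of 3p miRNA (%) whose mature sequence ends within 3 bases of an intron's 3′ end (blue) and whose last bases are AG (orange), in 3 sets of rows. The high-numbered set with 900 or more reads stands at 84.6% and 69.2%, the high-numbered set below 900 reads at 60.7% and 55.5%, and the other miRNA at 3.28% and 6.01%.

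The 8 members without an arm in their name differed from the 3p set. miR-8114, the most abundant, lay in an exon of Glul, the gene of glutamine synthetase (chr1:153899989-153900009, plus strand), and was itself 85.7% pyrimidine. miR-8112 lay in an exon of Krcc1 (chr6:71271745-71271764, plus strand) and miR-5103 in an exon of Gm37233 (chr1:34433130-34433149, minus strand). Of the 8, 5 lay in exons only, 2 in introns and 1 between genes. A read from a fragment of the host messenger RNA and a read from the annotated miRNA carry the same letters at these positions, and the counts do not separate them.

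No seed was shared between the 43 members with a sequence, and 10 of them shared one with some other row that had a sequence. The most abundant such row held 1521 reads and shared its seed with miR-6967-5p, which had 1723. Rows with a sequence were laid beside each member with starts at most 2 bases apart. None then overlapped a member by 16 or more bases with 3 or fewer mismatches. Larger offsets were not tried, and rows without a sequence could not be compared.

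The 47 members together held 166889 reads, 0.0110% of all miRNA reads, so they form a minor part of the plasma profile. miR-8114 alone had 59307 reads, 35.5% of the members' total, and was seen in 897 samples (99.8%). Both samples without it were C57Bl/6 sham samples of day 5. miR-6967-3p was next with 10384 reads in 817 samples (90.9%). No other member was seen in over 90% of samples.

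Below these came a group of 8 members at 3312 to 5993 reads. The most frequent were miR-7219-3p in 734 samples (81.7%), miR-5103 in 721 (80.2%), miR-7015-3p in 719 (80.0%) and miR-7075-3p in 707 (78.6%). The others of the group were miR-8112 in 695 (77.3%), miR-6948-3p in 638 (71.0%), miR-7667-5p in 635 (70.6%) and miR-6911-3p in 585 (65.1%). The spread of 65.1% to 81.7% mostly followed the reads. Exceptions were miR-7015-3p (4892 reads), seen in more samples than miR-7075-3p (4967 reads), and miR-7667-5p (3312 reads), seen in more than miR-6911-3p (3390 reads).

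The remaining members were sparse. miR-7646-5p had 1492 reads in 352 samples (39.2%) and miR-6961-3p 1177 reads in 315 samples (35.0%). The median member was detected in 45.5% of samples, with a median of 3 reads where it was detected, and 20 of 47 members were seen in over 50% of samples. Counting a sample only at 3 or more reads, the median was 27.5%. Just inside the limit of 900 stood miR-7661-3p (974 reads, 296 samples), miR-7118-3p (968 reads, 257 samples) and miR-6944-3p (925 reads, 259 samples), and just outside stood miR-5627-3p (1 read below the limit, 294 samples), miR-7653-3p (874 reads, 277 samples) and miR-7115-5p (822 reads, 275 samples). Members on both sides of the limit were thus found in a like number of samples.

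By number, the 5 members of the 5000s were detected in a median of 70.8% of samples, the 17 of the 6000s in 44.8%, the 20 of the 7000s in 39.0% and the 5 of 8000 and up in 63.1%. By arm, 29 members were 3p and held 41.1% of the members' reads, 10 were 5p and held 10.1%, and the 8 without an arm held 48.7%. Where only a single arm was a member, the rule itself made it the arm with more reads. The shares below thus describe the choice, and none is given for other miRNA. Of the 35 members whose other arm was not a member, 30 held over 90% of the reads of both arms and 7 had a partner with no read at all. The lowest share was 74.3%, in miR-6961-3p. Both arms were members only for miR-6967, with 85.8% of reads on the 3p arm, and for miR-5107, with 53.9% on the 5p arm.

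Detection followed depth. In the 300 shallowest libraries the median member was seen in 37.3% of samples, in the middle 299 in 45.5% and in the 300 deepest in 58.0%, and 46 of 47 members were seen more often in the deepest than in the shallowest. A sample showed a median of 24 members (range 3 to 42). After every library was thinned to 200000 reads the expected number was 11, 10.9 and 10.6 members a sample in the 3 depth classes, and the median member's detection fell to 16.3%. The deepest library, a C3H sham sample of month 4, held the highest read number of 12 members.

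Per read, the members were detected about as often as other miRNA. In the class of 900 to under 2000 reads the median detection was 37.9% for 26 members and 36.5% for 62 other miRNA, and in the class of 2000 to under 12000 reads it was 68.9% for 20 members and 71.5% for 135 others. The share of a member's reads held by its 10 highest samples ran from 4.89% (miR-8114) to 19.1% (miR-7213-5p).

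**Figure D2:**
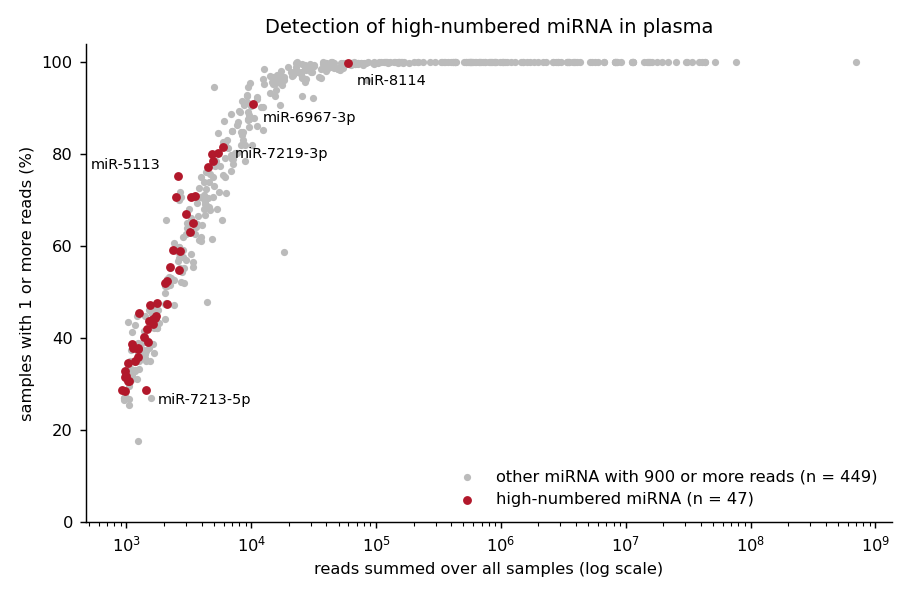
Share of all samples with 1 or more reads (%) against the reads summed over all samples (log scale) for the 47 high-numbered miRNA (red) and the other miRNA with 900 or more reads (grey). The red points run along the grey ones from 28.6% to 99.8%, and miR-7213-5p sits lower than most points of like reads.

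The median member was detected in 52.0% of C3H and 43.5% of C57Bl/6 samples, with a larger share in C3H for 32 members and in C57Bl/6 for 15. This count is given without one over all miRNA, and depth differed between the strains. After treatment, C3H irradiated samples showed a median detection of 51.0% and sham samples 56.3%, at median depths of 1508942 and 1837724 reads. The C57Bl/6 values were 44.4% and 46.5%, at median depths of 1353946 and 1537211 reads. Thinned to 200000 reads the 4 values were 17.2% and 17.0% in C3H and 18.3% and 17.6% in C57Bl/6, so that the gaps between irradiated and sham samples narrowed to under 1 percentage point. Both thinned C3H values were below the C57Bl/6 values of the same treatment. The part of depth in the strain difference of detection was not tested. Of the 47 members, 45 were seen at least once in every one of the 32 groups of strain, treatment and time point. miR-7065-3p had no read in the 16 C57Bl/6 sham samples of month 4, and miR-7213-5p lacked reads in a whole strain.

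miR-7213-5p was found in C57Bl/6 alone. It had no read in 402 C3H samples, which allows detection in up to 0.746% of such samples if they are taken as independent, though they came from repeated draws of 96 mice, and 1447 reads in 259 of 497 C57Bl/6 samples (52.1%), the highest with 61 reads. Among the 496 miRNA with 900 or more reads, it was the only one with no read in C3H, and none lacked reads in C57Bl/6. Pooled over samples, C57Bl/6 stood at 1.89 RPM (the reads-per-million value) and the floor of 3 reads over all C3H samples at 0.00396 RPM. The counted level was thus at least 476-fold higher in C57Bl/6, where the floor covers counting error only. Counts also depend on a match to the reference sequence, and whether C3H reads match it at this hairpin was not tested. Since this row passed the sum through C57Bl/6 alone, its difference is a description of what was chosen as well as a measurement.

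miR-7213 lies in an intron of Pdgfb, which encodes a subunit of platelet-derived growth factor (chr15:79999007-79999026, minus strand). The mature 5p sequence was 1302 bases from either end of an intron of 2624 bases, unlike the 3p members above. The other arm, miR-7213-3p, which is not a member, also had no read in C3H and had 62 reads in 35 C57Bl/6 samples, 27 of which held both arms. All C57Bl/6 groups of treatment and time had samples with miR-7213-5p, and every C3H group had none.

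Within C57Bl/6, miR-7213-5p stood at 2.2 ± 2.40 CPM in 32 sham mice and 1.82 ± 2.45 CPM in 64 mice assigned to irradiation at PT (mean ± SD), where CPM is the counts-per-million value with libraries scaled by TMM. The sham mean was highest at day 5, 4.72 ± 6.23 CPM (n = 16, detected in 9, range 0 to 22.0), and lowest at month 4, 0.805 ± 1.37 CPM (n = 16). Irradiated means ran from 0.893 ± 1.82 CPM at month 3 (n = 31) to 2.82 ± 3.71 CPM at month 6 (n = 8). The SD exceeded the mean in every C57Bl/6 group, and no irradiated and sham pair differed by edgeR's quasi-likelihood test (smallest unadjusted p 0.0763, at day 5).

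**Figure D3:**
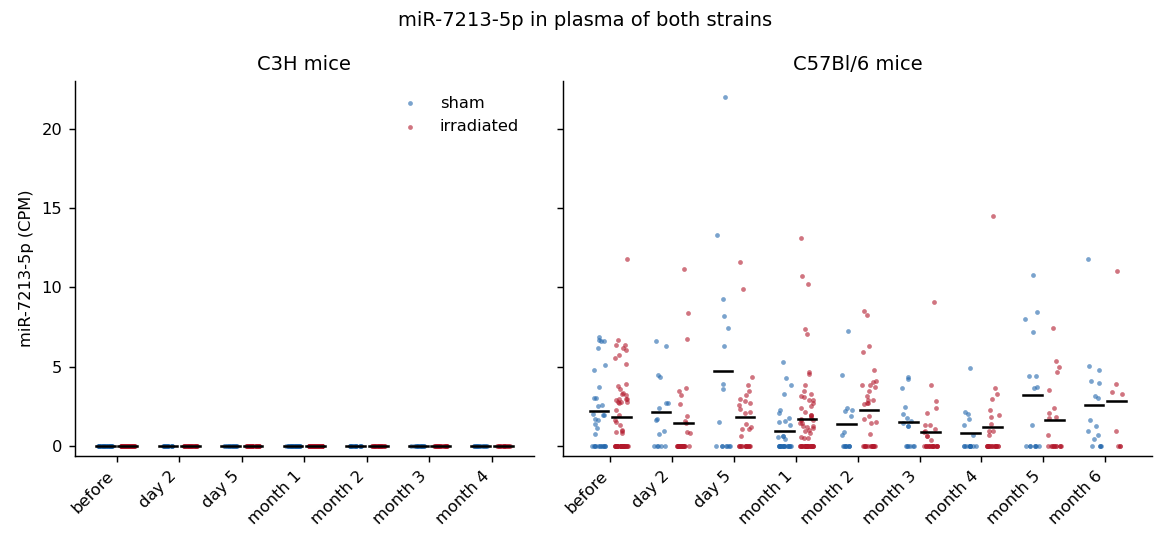
miR-7213-5p in CPM in each plasma sample by time point, with C3H on the left and C57Bl/6 on the right, sham in blue and irradiated in red, and a black line at each group mean. All 402 C3H points lie at 0, while C57Bl/6 points reach 22.0 CPM and irradiated and sham points overlap at each time.

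The strains were compared at PT, when no mouse had been treated, which asks which members differ between C3H and C57Bl/6 by themselves. Of all 483 miRNA tested, 50.7% differed at an adjusted p under 0.05, and among members 11 of 41 did (26.8%). One of the 11 was miR-7213-5p, whose reads in C57Bl/6 had chosen it, so that its strain test is given no weight. Of the other 40 members tested, 10 differed (25.0%), 4 higher and 6 lower in C57Bl/6. Tests across miRNA were quasi-likelihood tests in edgeR, with p adjusted by Benjamini and Hochberg's method over all miRNA tested. The 6 members not tested, all of the 7000s, were below its filter on low counts. In these data strain cannot be told apart from title code, since each code held a single strain.

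Higher in C57Bl/6 were miR-6964-3p, miR-7676-3p, miR-6961-3p and miR-5114. miR-6964-3p, from the end of a C2cd2 intron, was detected in 22 of 96 C3H and 41 of 96 C57Bl/6 mice, at 0.392 ± 0.903 and 1.28 ± 1.86 CPM, a log2 difference of 1.49 (SE 0.34, edgeR adjusted p 5.21e-05). miR-7676-3p, annotated at 2 loci of which the first listed is in a Csf2rb2 exon, was found in 17 and 31 mice (log2 difference 1.22, SE 0.36, edgeR adjusted p 0.00203). miR-6961-3p was found in 25 and 45 mice (log2 difference 1.02, SE 0.34, edgeR adjusted p 0.00816). miR-5114, from an exon of Scd2, a fatty acid desaturase gene, was found in 34 and 52 mice (log2 difference 0.87, SE 0.32, edgeR adjusted p 0.0153). In these 4 the groups overlapped, since both strains held many mice with no read.

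Lower in C57Bl/6 were miR-6900-3p, miR-8112, miR-6975-3p, miR-7084-5p, miR-7048-3p and miR-8114. miR-6900-3p, from an intron of Ndufa10, a subunit gene of respiratory complex I, was detected in 58 of 96 C3H and 24 of 96 C57Bl/6 mice, at 1.70 ± 2.07 and 0.398 ± 0.796 CPM, a log2 difference of -1.89 (SE 0.35, edgeR adjusted p 4.48e-07). miR-8112 stood at 5.32 ± 5.39 CPM in C3H (range 0 to 27.3, median 3.82) and 2.06 ± 2.48 CPM in C57Bl/6 (range 0 to 11.4, median 1.21), a log2 difference of -1.43 (SE 0.26, edgeR adjusted p 3.46e-07). The ranges overlapped, and miR-8112 was detected in 82 C3H and 60 C57Bl/6 mice.

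miR-6975-3p, from an intron of the RNA helicase gene Ddx39b, gave a log2 difference of -1.24 (SE 0.38, edgeR adjusted p 0.00347), miR-7084-5p, from Elof1, one of -1.10 (SE 0.34, edgeR adjusted p 0.00395) and miR-7048-3p, from Dedd2, one of -0.99 (SE 0.36, edgeR adjusted p 0.0142). miR-8114 was found in every mouse, at 76.3 ± 38.9 CPM in C3H (19.7 to 192.4, median 67.8) and 55.4 ± 25.3 CPM in C57Bl/6 (14.3 to 139, median 49.96), a log2 difference of -0.48 (SE 0.12, edgeR adjusted p 0.000412). The 2 ranges overlapped over most of their width. Of these 10 members, only miR-8114 passed the filter on low counts when the strains were compared in a fit of the PT samples alone. The others fell below the filter in that fit, and their calls used the filter over all samples. The filter depends on the grouping, and miR-8112 passed it in the PT fit of title codes below. All 10 calls held when each member's highest library was left out, but 2 were lost with other tools. miR-7048-3p had an adjusted p of 0.0703 under the DESeq2 Wald test, 0.223 under limma-voom and 0.229 with the mouse as a block in limma-voom. miR-6975-3p had a log2 difference of -0.26 under limma-voom (adjusted p 0.335) and with the mouse block (adjusted p 0.338).

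Title codes were compared within a strain at PT, where 8 members could be tested. In C57Bl/6, G3 against G1 differed in 48.3% of all 319 miRNA and 2 of 8 members, and in C3H, G4 against G2 in 70.2% and again 2 of 8. The members were miR-8114 and miR-8112 in both. miR-8114 stood at 64.8 ± 24.8 CPM in G1, 46.0 ± 22.4 in G3, 97.8 ± 40.9 in G2 and 54.7 ± 21.1 in G4 (n = 48 each). Its log2 difference was -0.53 (SE 0.12, edgeR adjusted p 0.000154) in C57Bl/6 and -0.88 (SE 0.12, edgeR adjusted p 5.09e-11) in C3H. Codes within a strain thus differed in miR-8114 by at least as much as the strains did.

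miR-8112 stood at 1.55 ± 1.80 CPM in G1, 2.58 ± 2.95 in G3, 7.50 ± 6.43 in G2 and 3.14 ± 2.76 in G4 (n = 48 each). G3 was above G1 by 0.84 on the log2 scale (SE 0.35, edgeR adjusted p 0.0359), a call lost under limma-voom (0.71, adjusted p 0.0653), with no filter on low counts (0.84, edgeR adjusted p 0.0881) and with quantile-normalized RPM in limma (0.13, adjusted p 0.637). In C3H, G4 minus G2 was -1.28 (SE 0.29, edgeR adjusted p 4.45e-05). Both C3H codes still had the higher means. Over the 4 pairs of 1 code of each strain, 8 of the 10 strain differences kept their direction in all pairs. The 10 had been called in the same PT samples, so the pairs describe them and are no separate test. For miR-8114 the G1 to G4 pair turned round, by 0.24 on the log2 scale, and for miR-7048-3p the pairs of G1 and G3 with G4 gave 0.01 and 0.03.

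Female and male mice were compared over both strains at PT. Of all miRNA 27.6% differed, and 0 of 8 members did, none with an unadjusted p under 0.05 by edgeR. Over all miRNA 39.8% had such an unadjusted p. The smallest edgeR adjusted p was 0.137, for miR-8112.

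The effect of WTLI was tested against sham mice at each time, over 6 time points in C3H and 8 in C57Bl/6. Members gave 4 calls in 574 tests (0.697%), against 254 in 6762 (3.76%) over all miRNA. In C3H it was 2 of 246 (0.813%, all miRNA 2.42%) and in C57Bl/6 2 of 328 (0.610%, all miRNA 4.76%). The C3H tests include 6 of miR-7213-5p, which has no read there. The members were sparse, with a median mean level of 1.02 log2 CPM against 3.59 for other tested miRNA. Among the 188 others no more abundant than the second member, 48 of 2632 tests (1.82%) were called. The difference between these shares was not tested.

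The background at the 4 time points with a called member was 3.31% in C3H at month 1, 2.07% in C3H at month 3, 6.63% in C57Bl/6 at day 2 and 4.76% in C57Bl/6 at month 4, and 1 of 41 members (2.44%) was called at each. At the other times, where all miRNA gave 4.97% (day 2), 3.11% (day 5), 0.621% (month 2) and 0.414% (month 4) in C3H, 0 of 41 members were called, with 1, 0, 2 and 3 members at an unadjusted p under 0.05 by edgeR. Over all miRNA, 15.7%, 11.8%, 8.9% and 8.49% had such an unadjusted p at these times. The same held in C57Bl/6, where the background was 14.1% (day 5), 3.73% (month 1), 3.31% (month 2), 1.66% (month 3), 3.52% (month 5) and 0.414% (month 6), with 5, 1, 1, 5, 2 and 3 members at an unadjusted p under 0.05 by edgeR. Day 5 in C57Bl/6 thus had the most calls over all miRNA and none among the members. The smallest edgeR adjusted p of a member at that time was 0.0656.

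miR-6961-3p in C3H at month 1 was detected in 22 of 58 irradiated and 4 of 32 sham mice, with a median of 0 and a maximum of 5.15 and 1.57 CPM, and means of 0.714 ± 1.22 and 0.144 ± 0.402 CPM. The log2 difference was 1.82 (SE 0.55, edgeR adjusted p 0.0323). The irradiated level was thus higher through more mice with a read, and the groups overlapped at 0. Without the highest library, an irradiated sample with 5 reads, the edgeR adjusted p was 0.0591. At month 4 in the same strain the mean was lower in irradiated mice (0.219 ± 0.431, n = 17) than in sham mice (0.784 ± 1.27, n = 16), with an edgeR adjusted p of 0.559.

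miR-5107-3p in C3H at month 3 was detected in 12 of 27 irradiated and 2 of 16 sham mice, with medians of 0, maxima of 8.68 and 1.68 CPM and means of 1.43 ± 2.26 and 0.190 ± 0.521 CPM. The log2 difference was 2.61 (SE 0.77, edgeR adjusted p 0.0411). Without the highest library, of the same irradiated mouse as above and with 13 reads, the edgeR adjusted p was 0.109. Irradiated C3H means were also higher at month 2 (1.84 ± 2.57 against 0.549 ± 1.01, edgeR adjusted p 0.490) and month 4 (1.31 ± 1.91 against 0.377 ± 0.743, edgeR adjusted p 0.382), and lower at month 1 (0.923 ± 1.87 against 1.76 ± 2.36, edgeR adjusted p 0.476). In C57Bl/6 at month 3 the levels were 3.02 ± 4.12 and 0.636 ± 1.21 CPM (log2 difference 2.08, edgeR adjusted p 0.126).

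miR-7646-5p in C57Bl/6 at day 2 was detected in 3 of 32 irradiated and 9 of 16 sham mice, with medians of 0 and 0.855 CPM, maxima of 6.97 and 29.8 CPM and means of 0.335 ± 1.30 and 3.03 ± 7.29 CPM. The log2 difference was -2.81 (SE 0.74, edgeR adjusted p 0.00632). The irradiated libraries were shallower, with a median of 859418 against 1300997 reads, and the part of depth in detection was not tested. Without the sham library that held 18 reads, the edgeR adjusted p was 0.169. Within codes the log2 difference was -1.08 in G1 (edgeR adjusted p 0.690) and -3.91 in G3 (edgeR adjusted p 0.0113).

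miR-7012-5p, the 5p side of a Dennd4b intron of 84 bases (chr3:90270154-90270176, plus strand), was detected in 5 of 29 irradiated and 5 of 16 sham C57Bl/6 mice at month 4. Maxima were 2.39 and 8.55 CPM and means 0.255 ± 0.650 and 1.36 ± 2.47 CPM, a log2 difference of -2.12 (SE 0.69, edgeR adjusted p 0.0448). Without the highest sham library, with 15 reads, the edgeR adjusted p was 0.207. All 4 calls were thus lost when a single library was left out, an alternative added after the data were seen.

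miR-8114 was measured most precisely, with log2 differences of -0.44 to 0.73 and SE of 0.18 to 0.35 over the 14 tests. Its largest was in C57Bl/6 at month 5, where 21 irradiated mice stood at 47.8 ± 33.5 CPM (5.64 to 147, median 39.7) and 16 sham mice at 28.8 ± 15.5 (7.18 to 64.5, median 27.6), with an edgeR adjusted p of 0.114. miR-6967-3p in C57Bl/6 at day 5 was at 4.34 ± 4.51 CPM (n = 32) and 9.23 ± 10.1 CPM (n = 16), a log2 difference of -0.99 (edgeR adjusted p 0.0921), and at day 2 at 4.88 ± 6.17 and 9.06 ± 8.17 CPM, a log2 difference of -0.92 (edgeR adjusted p 0.161). Neither passed the test.

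**Figure D4:**
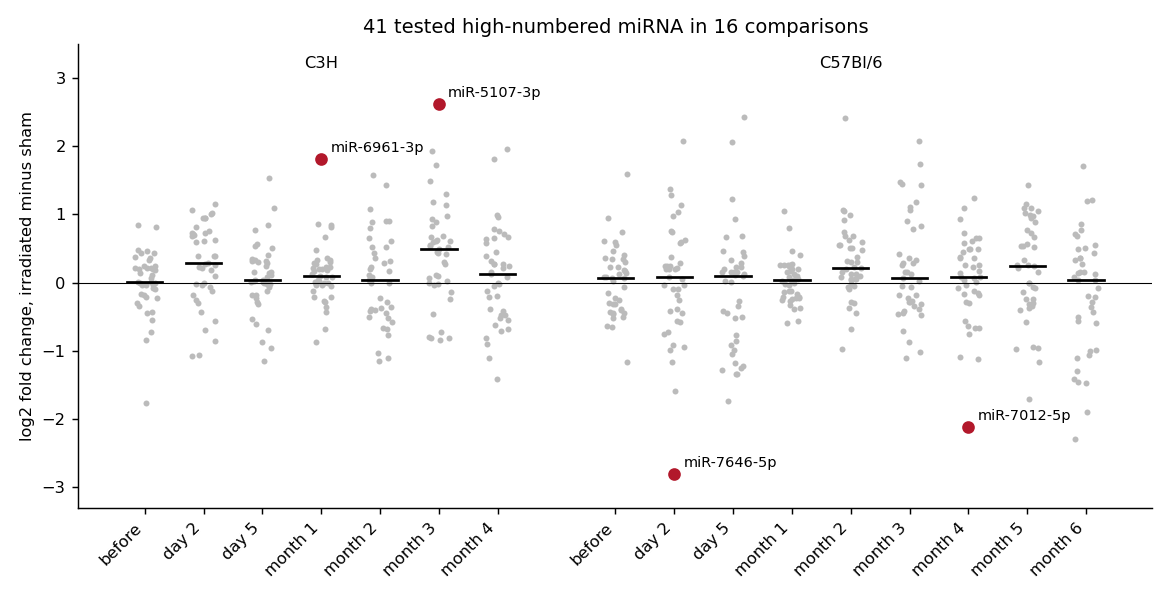
log2 fold change of irradiated minus sham for the 41 tested members at PT and each later time point in both strains, with a black line at the median of each column. The 4 members called at an adjusted p under 0.05 are red and named (miR-6961-3p, miR-5107-3p, miR-7646-5p and miR-7012-5p), and all other points are grey.

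As a check of the assigned groups, 0 of 41 members differed at PT in either strain (background 0.0% in both). In each strain 2 members had an unadjusted p under 0.05 by edgeR, against 6.63% of all miRNA in C3H and 5.18% in C57Bl/6. Of these members the smallest edgeR adjusted p was 0.148, for miR-6964-3p in C3H. Whether the irradiation effect differed between strains was tested over the 6 shared times, where 4.35% of all miRNA and 0 of 41 members did. An unadjusted p under 0.05 by edgeR was reached by 2 members and by 11.8% of all miRNA. The smallest edgeR adjusted p among members was 0.0605, for miR-5107-3p.

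Sham mice were followed over time without irradiation. Time, age and repeated sampling come together in this comparison and cannot be told apart. Title code and mice also changed, since samples after month 1 came from G1 and G2 alone. The samples of day 2 and of day 5 came from different mice. The test took repeated samples of a mouse as independent. In C3H 46.0% of all miRNA changed, and 9 of 41 members did (22.0%). In C57Bl/6 it was 62.9% and 7 of 41 (17.1%). miR-8114 and miR-6967-3p were in both.

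miR-8114 was lower at later times in both strains. In C3H sham mice it stood at 76.6 ± 46.3 CPM at PT (n = 32, 24.4 to 189), 35.2 ± 29.2 at day 2, 42.8 ± 18.3 at day 5, 35.7 ± 23.2 at month 1 and 31.2 ± 16.4 at month 4 (n = 16 to 32; edgeR adjusted p 5.78e-09 for any change). In C57Bl/6 it went from 52.3 ± 25.8 at PT to 34.6 ± 22.1 at month 1 and 27.2 ± 15.9 at month 6 (edgeR adjusted p 0.00106). Irradiated C3H mice went from 76.1 ± 35.1 CPM at PT to 33.3 ± 14.1 at month 4.

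miR-6967-3p in C57Bl/6 sham mice stood at 12 ± 6.00 CPM at PT (n = 32), 9.06 ± 8.17 at day 2, 4.83 ± 4.29 at month 1 and 3.99 ± 2.59 at month 6 (n = 16), with an edgeR adjusted p of 1.77e-04. Its partner miR-6967-5p was found in 16 of 32 of these mice at PT, 1 of 16 at day 5 and 10 of 16 at month 5 (edgeR adjusted p 0.0115). In the 16 sham samples of day 5 the 3p arm was found in 13, and whether the arms differed in course was not tested.

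**Figure D5:**
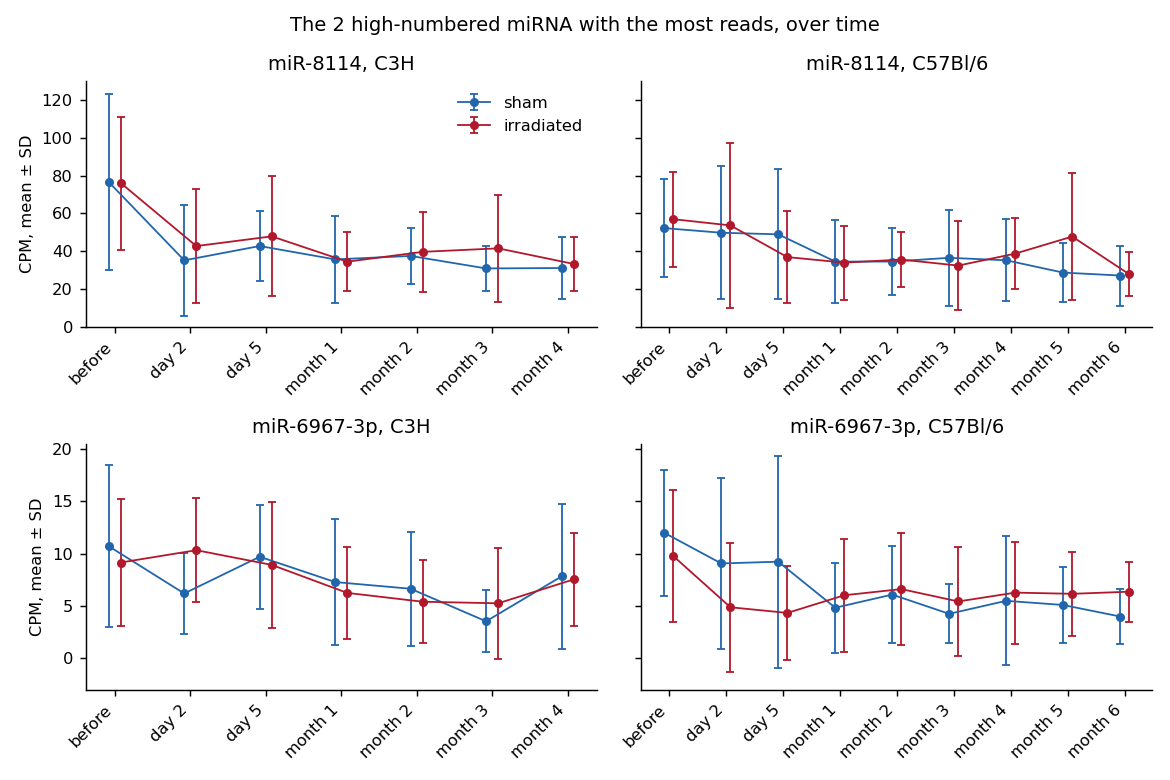
Mean CPM with SD of miR-8114 (upper) and miR-6967-3p (lower) at each time point in C3H (left) and C57Bl/6 (right), sham in blue and irradiated in red. miR-8114 is highest at PT in both strains, 76.6 ± 46.3 CPM in C3H sham mice and 52.3 ± 25.8 CPM in C57Bl/6 sham mice, and the error bars of sham and irradiated groups overlap at every time.

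The other members with the smallest p in C3H sham mice were detected at rates that moved up and down. miR-5107-3p was found in 13 of 32 at PT, 2 of 16 at day 5, 21 of 32 at month 1 and 2 of 16 at month 3 (edgeR adjusted p 6.41e-05). miR-6946-3p was found in 15 of 32 at PT, 12 of 16 at day 5 and 3 of 16 at month 4 (edgeR adjusted p 1.97e-04). miR-6975-3p and miR-6955-3p peaked at 9 of 16 at day 5 and 10 of 16 at day 2 (edgeR adjusted p 0.00467 and 0.00577). No steady rise or fall was seen in these 4.

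In C57Bl/6 sham mice the others were miR-7646-5p, found in 9 of 32 at PT, 9 of 16 at day 2 and 3 of 16 at month 5 (edgeR adjusted p 0.00846), and miR-7213-5p, found in 20 of 32 at PT, 9 of 16 at day 5 and 14 of 32 at month 1 (edgeR adjusted p 0.0286). Leaving out the highest library ended the calls of 3 of the 9 members in C3H (miR-6967-3p, miR-7658-3p and miR-8116) and of 4 of the 7 in C57Bl/6 (miR-6944-3p, miR-6960-5p, miR-7213-5p and miR-7646-5p). miR-8114 remained in both strains, and miR-6967-3p and miR-6967-5p remained in C57Bl/6.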

How the data were processed

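The authors trimmed and aligned the small RNA reads and deposited raw counts per mature miRNA for all plasma samples (mm10 per the labels); the miRNA release and any use of molecular identifiers are not given in the sources used here. Heart and lung tissue was not analysed here. Counts were scaled by TMM and tested in edgeR 4.0.16 (R 4.3.3) by quasi-likelihood F tests with Benjamini-Hochberg adjustment in each contrast. The fit had 32 groups of strain, treatment and time point, with 483 miRNA past filterByExpr. A fit of the PT samples alone (319 miRNA) gave sex and title code. Tested miRNA held 99.99% of reads, and depth was 206490 to 11814515 reads per sample. Samples of 1 mouse at different times share its number. Over 1962 such pairs the mean correlation of residuals was 0.0841 (-0.000465 between mice), and a mouse block was an alternative, as were DESeq2 1.42.0, limma 3.58.1, filters, title codes and left-out libraries. No 2 samples were identical, and cage or litter was not given, so p-values treat mice as independent. Introns were those of GENCODE M21. Steps were tested on simulated data. The members, lists and tests were chosen with earlier results of these data known. miRNA named were 3 examples, the 10 with most reads, those called after irradiation, up to 5 each way (F tests: the 5 smallest p) in other comparisons and 3 on either side of the limit; others were named after their values were seen.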

Additional observations from a re-analysis of the deposited data

Results flagged for a closer look

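The 8 irradiated C57Bl/6 samples of month 6 were the only group of 4 to 10 samples. There, 4 of 41 members had a highest sample whose gap to the others was past Dixon's critical value. This value was 0.526 of the range on the log2 CPM scale. Chance alone gives about 1 in 20 for normally distributed values, a rate that need not hold for these sparse counts. miR-7219-3p reached 3.82 log2 CPM (33 reads) against 1.19 to 2.42 in the others. miR-6944-3p reached 1.97 (7 reads) against 0.23 to 0.63, in the same mouse. miR-6516-5p reached 2.07 (8 reads) against 0.23 to 1.06. miR-6946-3p reached 1.78 (19 reads) against 0.23 to 0.71. On the linear CPM scale 18 of the 41 had such a sample.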

How the results depend on the processing

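Counts of called members moved with the method, and the cause was not tested unless the number of tests shows it. The 2 calls after irradiation in C3H became 0 under the DESeq2 Wald test, limma-voom, limma-voom with the mouse as a block, quantile-normalized log2 RPM in limma, a stricter filter (36 tests), without the highest library and in each pair of title codes alone (day 2, day 5 and month 1, where all samples gave 1), and 1 with only the 2 groups compared (11 tests). The 2 in C57Bl/6 became 1 with DESeq2 size factors, limma-voom, the mouse block and quantile-normalized RPM, 0 with only the 2 groups compared (16 tests), the stricter filter (48 tests) and without the highest library, and 2 with G3 and G4 alone over day 2, day 5 and month 1, where all samples gave 1. With no filter on low counts, the 0 calls between assigned groups became 1, the 0 of the strain difference of irradiation became 1 and the 4 of title codes became 12 (94 tests), against 2 with the stricter filter. The 11 strain calls (miR-7213-5p included) became 1 in PT samples alone (5 tests) and 1 with the stricter filter (6 tests). In sham mice the 9 calls of C3H became 14 with limma-voom, 17 with the mouse block in limma-voom, 3 with a fixed mouse block in edgeR (7 tests) and 2 with the stricter filter. The 7 of C57Bl/6 became 19, 18, 4 (10 tests) and 2 under the same, and 3 without the highest library. Median detection went from 45.5% to 27.5% at 3 or more reads and 16.3% after thinning. The differences that turned round were those of miR-7048-3p (0.01 and 0.03, G1 and G3 minus G4) and miR-8114 (0.24, G1 minus G4).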
